A study of Homo sapiens with 31 samples.

Results

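The genes described are the SR splicing factor genes SRSF1, SRSF2, SRSF3, SRSF4, SRSF5, SRSF6, SRSF7, SRSF10 and SRSF11, with CLK1, a kinase gene whose product phosphorylates SR proteins. They are 10 of the 56269 gene names counted, and all 10 passed the filter on low counts. They were picked by gene name with palbociclib results of these data already known. SRSF5 and SRSF6 were already known from these libraries to stand higher with palbociclib at 9 h, so every palbociclib against DMSO value of the 10 genes is given as a description. Counts of the 10 past the edgeR threshold in those comparisons are printed beside the share of all genes, and nothing is read from them. DMSO 9 h is the reference of the known 9 h difference. The SRSF5 and SRSF6 steps from 6 to 9 h and from 9 to 12 h are therefore descriptions too. RNA was measured in MCF10A, an immortalised but non-tumorigenic cell line of human breast epithelium, which leaves the cell cycle when growth factors are withdrawn. Cells were starved for 2 to 3 days in medium without serum, EGF or insulin. They were then moved into full medium holding 5% horse serum, 20 ng/mL EGF and 10 µg/mL insulin. Both media held 0.5 µg/mL hydrocortisone and 100 ng/mL cholera toxin, so all groups share these 2 agents. Palbociclib at 1 µM, an inhibitor of the cyclin D kinases CDK4 and CDK6, was present in the groups collected at 9, 12, 15 and 24 h. The vehicle, 0.1% DMSO, was present in the groups collected at 3, 6, 9, 12, 15 and 24 h, and the starved cells at 0 h received neither. Each group had 3 libraries, except that both 24 h groups had 2, numbered 1 and 3, which gave 31 libraries in 11 groups. The comparisons are between times after release, and between palbociclib and DMSO at the same time.

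SR proteins bind exonic enhancer sequences through RNA recognition motifs and recruit the U1 and U2 machinery to nearby splice sites through a domain rich in arginine and serine. SRPK kinases phosphorylate that domain in the cytoplasm, which lets the protein enter the nucleus, and CLK kinases phosphorylate it further there and release SR proteins from nuclear speckles. Many SR genes limit their own level: the protein promotes inclusion of a poison exon in its own transcript, and that form is destroyed by nonsense-mediated decay (NMD). CLK1 transcripts are known to be held in the nucleus with introns retained. In the GENCODE 29 annotation all 10 genes had at least 1 transcript of the NMD class, against 35.7% of the 19927 protein-coding genes, and 8 of 10 had a retained-intron transcript, against 46.2%. SRSF6 and SRSF11 had no retained-intron transcript. The counts are per gene, so productive, NMD and retained-intron forms are pooled in every value below.

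Promoters are shown because the genes followed 3 different time profiles, and because E2F and CHR elements are the classic DNA elements of cell-cycle transcription. RefSeq promoters on GRCh38.p14 were matched for 9 of the 10 genes, SRSF2 being the other, and the 250 bases before the RefSeq start were searched on both strands, as they were in 35116 promoters. The E2F element was searched as TTTCGCGC, TTTGGCGC, TTTCCCGC, TTTGCCGC, TTTGGCGG and TTTCCCGG, and was found in SRSF10 alone of the 9 genes, against 4.51% of all promoters. The CHR element was searched as TTTGAA and was found in SRSF6 and SRSF11, against 13.3% of promoters. The full CRE (TGACGTCA, 1.65% of promoters) and the E-box (CACGTG, 6.34%) were found in none of the 9. The CRE core TGACGT, which lies inside the full CRE, and the TATA box TATAAA were added after the sequences had been seen. They were found in 3 and 2 of the 9 genes, against 7.1% and 10.7% of promoters. Because these 2 strings were picked with the sequences known, nothing is read from their counts against those shares. A match is a string of letters and not a shown binding site, and a lack of one says only that these letters are absent from this window. All 250 bases for SRSF5 and SRSF10 lie in exons of the same gene in the annotation used for counting, so their matches do too. The bases in such exons were 181 for CLK1, 133 for SRSF7, 100 for SRSF1, 87 for SRSF4, 14 for SRSF11, 9 for SRSF3 and 0 for SRSF6. The windows below read 5′ to 3′ on the strand of the gene, with the match, or its reverse complement, in capitals.
SRSF1, CRE core, chr17:58007379-58007408, minus strand: tcgtggggagggTGACGTcgcgcgtgcgtg
SRSF3, CRE core, chr6:36594256-36594285, plus strand: gtttgtagccatACGTCAcggcctcttctg
SRSF5, CRE core, chr14:69767080-69767109, plus strand: cgtccccggaagTGACGTaggacgcgccct
SRSF3, TATA box, chr6:36594320-36594349, plus strand: tccagtatggcgTATAAAtaaaggcgagga
SRSF7, TATA box, chr2:38751371-38751400, minus strand: agcggccgcataTATAAAcgcgaacccggg
SRSF10, E2F element, chr1:23980428-23980457, minus strand: ctggtgttctcGCGGGAAAgaaccgttgcg
The SRSF3 and SRSF7 TATA matches begin 30 and 27 bases before the start. The whole 250 bases before the SRSF6 start are given because SRSF6 was the gene whose palbociclib values changed side between 15 and 24 h, and capitals mark its CHR match.
SRSF6, chr20:43457646-43457895, plus strand: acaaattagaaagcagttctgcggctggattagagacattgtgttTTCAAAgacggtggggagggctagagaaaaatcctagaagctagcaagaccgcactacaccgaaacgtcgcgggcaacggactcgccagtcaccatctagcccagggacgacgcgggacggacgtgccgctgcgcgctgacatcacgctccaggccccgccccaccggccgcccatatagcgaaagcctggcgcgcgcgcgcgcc

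The libraries held between 10342358 and 20878364 counts, of which mitochondrial genes made up 2.48% to 4.378%. Along the main axis of variation within groups, which held 27.5% of that variance, replicate 3 of DMSO 24 h and of every palbociclib group scored on the opposite side from replicate 3 of the other groups, and 24 h values and palbociclib values are also given without these 5 libraries. At 24 h that leaves 1 library a group, assumed to vary like the others. With 2 libraries in a group the scores are equal and opposite by construction (11.35 in size for DMSO 24 h, 25.41 for palbociclib 24 h). Replicate 2 of palbociclib 12 h also scored opposite to the other libraries of its number (−12.89), and replicate 1 of palbociclib 15 h lay furthest out (−31.64). Both were kept. SRSF2 and SRSF7 loaded on that axis more than 95.3% and 91.4% of tested genes. Of the 6 basal epithelial markers, KRT5 stood at 2330 to 4170 CPM and KRT17 at 1520 to 6080, ITGA6 at 466 to 2580 and LAMB3 at 508 to 4050, KRT14 at 37.7 to 723 and TP63 at 42.4 to 166. Their sum was 8760 to 9540 CPM at 0 h, 13500 to 14800 at DMSO 3 h and 9180 to 9510 at DMSO 24 h. The 4 general epithelial markers summed to 515 to 533 CPM at 0 h, 1200 to 1340 at DMSO 3 h and 750 to 759 at DMSO 24 h. Of the fibroblast, blood and endothelial lists, COL1A2, COL3A1, PTPRC, CD3E, VWF and CDH5 had no more than 4 counts in any library. The summed endothelial list stood at 10.9 to 24.0 CPM at DMSO 3 h and 85.3 to 93.2 CPM at 0 h, nearly all of it KDR, and the fibroblast list at 16.2 to 16.3 CPM at DMSO 24 h and 74.4 to 85.4 CPM at 0 h, from COL1A1 and DCN. The blood list, nearly all CD14, stood at 7.46 to 8.19 CPM at DMSO 24 h and 28.5 to 34.1 CPM at 0 h. All 5 cell-cycle genes checked (E2F1, CDC6, MCM2, CCNA2 and CCNB1) were called lower with palbociclib at 12, 15 and 24 h, and 3 of them at 9 h. Values below are CPM with TMM scaling, read counts brought to a common library size, with mean ± SD where so written. In these bulk libraries, fewer cells with a transcript and less of it per cell cannot be told apart. Whether the replicates came from separate cultures is not stated in the labels, so the spread behind each p-value may be technical only.

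To compare genes, CPM was divided by the kilobases of exon that no other gene shares, since reads in shared exons went uncounted. Shared bases made up 36.7% of SRSF2 exons, 23.1% of SRSF1 exons, 1.9% of SRSF4 exons and 0 of the other 7. On this approximate scale SRSF5 and SRSF6 led in starved cells, and SRSF1 and SRSF2 led after a day in full medium. At 0 h the levels were 56.1 ± 3.4 CPM per kb for SRSF5, 44.1 ± 3.3 for SRSF6, 32.6 ± 0.80 for SRSF1, 29.01 ± 4.8 for SRSF2, 25.4 ± 9.2 for CLK1 and 23.6 ± 1.8 for SRSF11. From SRSF1 down, neighbours in that order differed by less than their spread. At DMSO 24 h the order was SRSF1 at 124 ± 9.8, SRSF2 at 106.1 ± 4.4, SRSF6 at 56.1 ± 0.75, SRSF3 at 50.9 ± 1.2 and SRSF7 at 48.7 ± 1.5 CPM per kb, with SRSF3 and SRSF7 not separated by more than their spread. SRSF5 stood at 22.5 ± 2.4 there and CLK1 at 7.20 ± 0.85, the lowest of the 10. The summed CPM of the 9 SRSF genes was 1917 ± 78 at DMSO 24 h and 1218 ± 48 at 0 h, and the share of that sum held by SRSF5 was 6.27% ± 0.43 at DMSO 24 h and 24.7% ± 1.3 at 0 h. Between the groups with the highest and lowest mean, SRSF7 varied 4.36-fold, SRSF1 3.82-fold, SRSF2 3.66-fold, CLK1 3.65-fold, SRSF3 3.59-fold and SRSF5 3.48-fold. SRSF10, SRSF6, SRSF4 and SRSF11 varied less, by 2.13-, 2.02-, 1.71- and 1.46-fold.

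**Figure D1:**
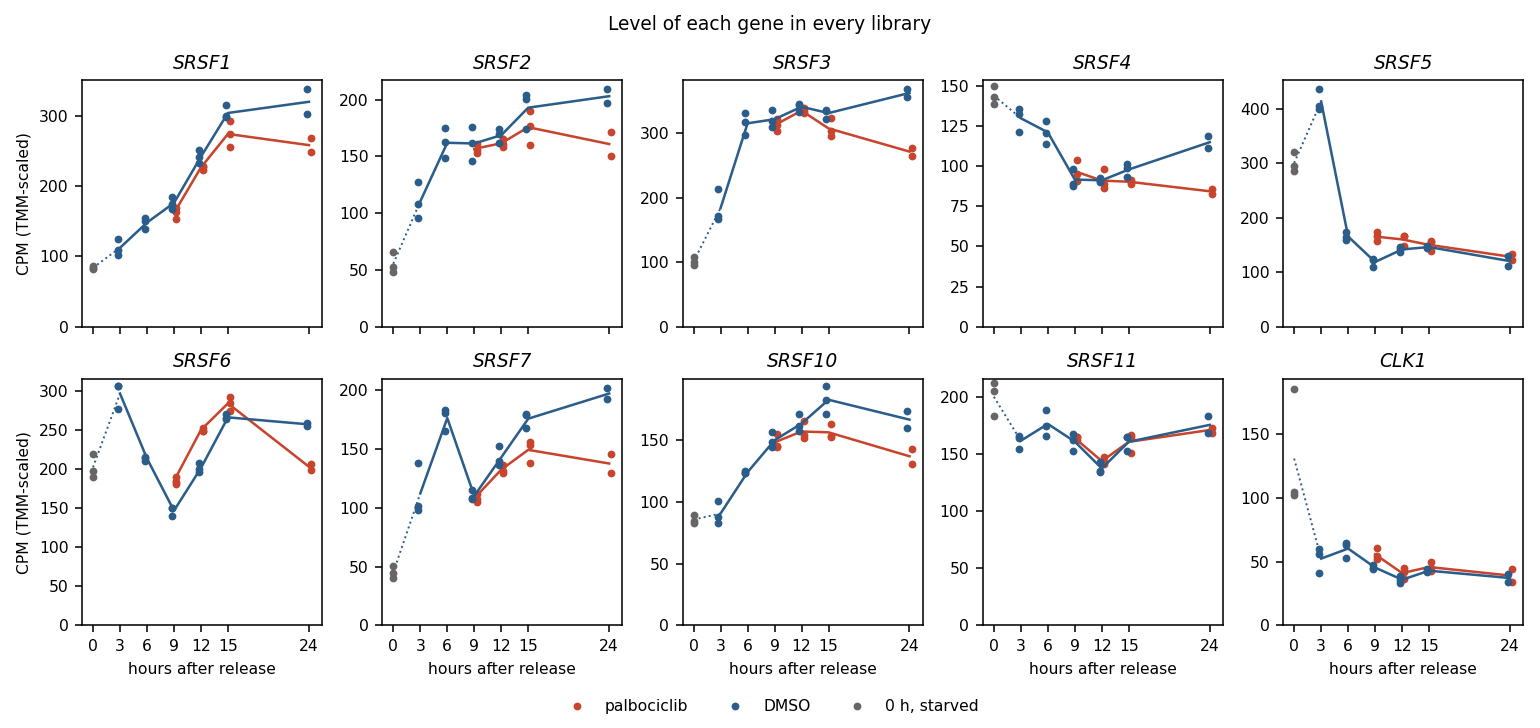
Level of each gene in every library (CPM, linear axis from 0) against hours after release, with palbociclib in red, DMSO in blue and 0 h in grey; lines join group means and the dotted line joins 0 h to DMSO 3 h. SRSF1, SRSF2, SRSF3, SRSF7 and SRSF10 had their lowest mean at 0 h, CLK1, SRSF4 and SRSF11 their highest at 0 h, and SRSF5 and SRSF6 their highest at DMSO 3 h.

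In starved cells moved to full medium with DMSO, the 3 h libraries had more SRSF1, SRSF2, SRSF3, SRSF5, SRSF6 and SRSF7 RNA and less CLK1, SRSF4 and SRSF11 RNA than the 0 h libraries. That is 6 of 10 genes higher, where 27.8% of all tested genes were called higher, and 3 lower, where 34.4% were. The median log2 fold change was 0.44 over the 10 genes and −0.10 over all 15787 tested genes. Scaling by library totals alone would move the median of all tested genes to −0.27 and the share of called genes that were higher to 32.3%, against 44.7% with TMM, and none of the 9 called genes changed sign with it.

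SRSF7, whose product has a zinc knuckle and also serves as an adaptor for mRNA export, had the largest rise. It stood at 97.7, 138 and 101 CPM at DMSO 3 h, against 44.5, 50.7 and 40.3 CPM at 0 h. The lowest 3 h library was far above the highest 0 h library, and the log2 fold change was 1.32 ± 0.09 (SE; adjusted p = 8.3e-14, edgeR quasi-likelihood test). SRSF2, also known as SC35, a component of nuclear speckles, rose by 1.00 ± 0.10 on the log2 scale (adjusted p = 2.3e-10, edgeR), at 110 ± 16 CPM at DMSO 3 h and 55.4 ± 9.1 CPM at 0 h. SRSF3, the smallest SR protein and another export adaptor, rose by 0.87 ± 0.07 (adjusted p = 7.4e-13, edgeR), at 184 ± 25 CPM and 101 ± 6.1 CPM in the same groups. SRSF1, the founding SR protein and a known oncoprotein in breast epithelium, rose less, by 0.42 ± 0.07 (adjusted p = 1.7e-06, edgeR). Of the SRSF2 exon bases, 36.7% overlap MFSD11, which runs the other way. Of the SRSF1 exon bases, 13.2% overlap an antisense gene and 9.91% a gene on its own strand. Reads there were not assigned, so the values of both genes rest on their other exon bases.

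CLK1 fell the most. It stood at 59.9, 41.3 and 56.2 CPM at DMSO 3 h, against 102.5, 186 and 105 CPM at 0 h. Every 3 h library was below every 0 h library, and replicate 2 at 0 h lay well above the other two. The log2 fold change was −1.34 ± 0.15 (adjusted p = 4.6e-09, edgeR), and without replicate 2 of 0 h it was −0.996 (adjusted p = 6.4e-09). CLK4, the closest relative of CLK1 among the kinases, also fell, by 1.91 ± 0.12 on the log2 scale, to 19.1 ± 1.9 CPM at DMSO 3 h, against 71.8 ± 16 CPM at 0 h (adjusted p = 3.7e-15, edgeR). CLK2 and CLK3 were not called at this step, with log2 values of −0.14 ± 0.07 and 0.02 ± 0.08. SRPK1, the main cytoplasmic SR kinase, rose by 0.43 ± 0.05 (adjusted p = 2.7e-09, edgeR), while SRPK2 was not called.

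SRSF11 fell by 0.31 ± 0.06 at 3 h (adjusted p = 3e-05, edgeR). SRSF4, which encodes one of the longest SR proteins, differed by −0.15 ± 0.06 (adjusted p = 0.032, edgeR), a call lost with DESeq2 size factors, with DESeq2, with no filter, with only these libraries, without the 5 libraries, and without replicate 1 or 2 of either group. SRSF10, known as a splicing repressor when dephosphorylated in heat shock and mitosis, was not called, at 90.7 ± 9.2 CPM at DMSO 3 h and 85.8 ± 3.2 CPM at 0 h.

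Between 3 and 9 h the SRSF genes that were called again went both ways, and SRSF11 was not called at either step. From 3 to 6 h SRSF1, SRSF2, SRSF3, SRSF7 and SRSF10 rose (5 of 10 genes, where 27.8% of all genes were called higher) and SRSF5 and SRSF6 fell (2 of 10, where 29.8% were called lower). SRSF3 rose by 0.78 ± 0.06 (adjusted p = 8.7e-12, edgeR) to 315 ± 17 CPM at DMSO 6 h, against 184 ± 25 CPM at DMSO 3 h. From 6 h on, SRSF3 stayed between 315 and 362 CPM in DMSO, and no later step of SRSF3 or SRSF2 was called.

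SRSF5 had the sharpest turn. Its product, a splicing factor, is also known as SRp40 or HRS. SRSF5 stood at 321, 286 and 295 CPM at 0 h, at 436, 404.5 and 400.1 CPM at DMSO 3 h, and at 165, 173 and 159 CPM at DMSO 6 h. The 3 h libraries were above all others and the 6 h libraries below all 0 h libraries. The log2 fold change was 0.46 ± 0.06 at 3 h against 0 h (adjusted p = 2.1e-07) and −1.32 ± 0.07 at 6 h against 3 h (adjusted p = 3.4e-17, both edgeR). It fell again by 0.48 ± 0.07 from 6 to 9 h, to its lowest level. From there it stayed between 119 and 146 CPM in DMSO to 24 h. The 6 to 9 h step shares the DMSO 9 h libraries with the known palbociclib difference, so it is a description.

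SRSF6 peaked at the same time and came back. SRSF6 encodes SRp55, a splicing factor studied in skin and colon epithelium. It stood at 220, 190 and 198 CPM at 0 h, at 307, 307 and 277 CPM at DMSO 3 h, then at 216, 211 and 214.5 CPM at 6 h and at 151, 140 and 150 CPM at 9 h. The 6 h libraries lay among the 0 h libraries and the 9 h libraries below them all. The log2 change was 0.55 ± 0.05 at 3 h (adjusted p = 5.5e-11), −0.47 ± 0.05 from 3 to 6 h (adjusted p = 2e-09) and −0.54 ± 0.05 from 6 to 9 h (adjusted p = 1.1e-09, all edgeR). It then rose by 0.46 ± 0.05 to 12 h and by 0.40 ± 0.05 to 15 h (adjusted p = 5.2e-08 and 8.8e-07, edgeR), where it stood at 264, 270.2 and 265 CPM.

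From 6 to 9 h, 5 of 10 genes were called lower, where 16.6% of all genes were, and 2 higher, where 18.1% were. The 5 include SRSF5 and SRSF6, a description at this step, so nothing is read from the 5. SRSF7 fell with SRSF5 and SRSF6: it had risen to 183, 181 and 165 CPM at DMSO 6 h and stood at 107, 115 and 108 CPM at DMSO 9 h. No 9 h library reached the 6 h range, and the log2 change was −0.68 ± 0.09 (adjusted p = 2.6e-07, edgeR). SRSF4 fell by 0.40 ± 0.06 (adjusted p = 5e-06, edgeR), and CLK1 by 0.41 ± 0.16 (adjusted p = 0.039, edgeR), a call lost with DESeq2, without the 5 libraries and in 5 of the 6 fits that left out 1 library. SRSF1 and SRSF10 went on rising, by 0.25 ± 0.06 and 0.27 ± 0.06 (adjusted p = 0.0029 and 8.3e-04, edgeR).

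**Figure D2:**
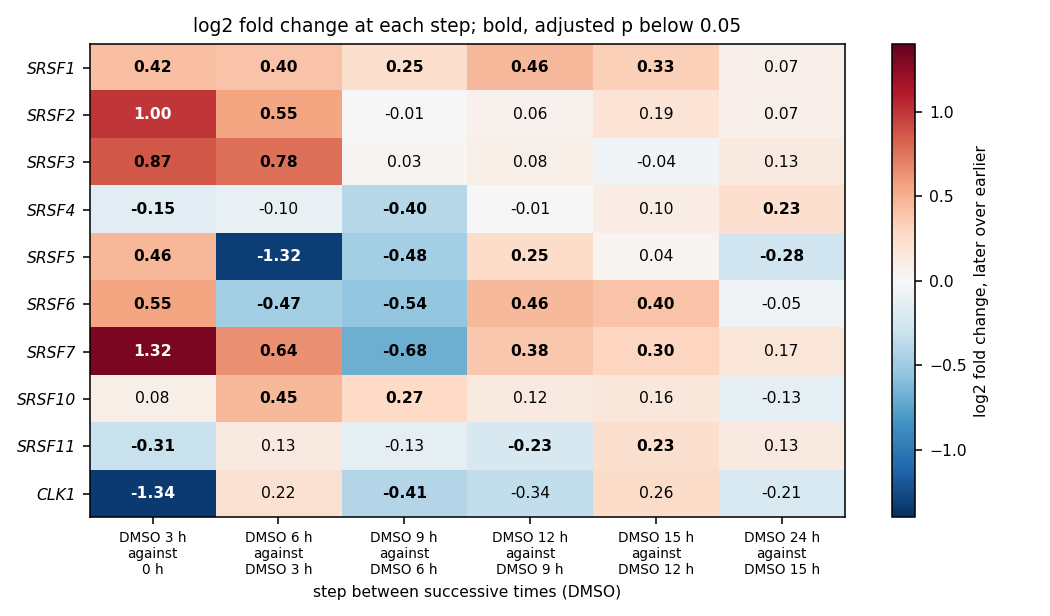
Log2 fold change of each gene (rows) at each step between successive DMSO times (columns, the first step starting at 0 h), with colour and number giving the value and bold type an adjusted p below 0.05 in edgeR's quasi-likelihood test. SRSF1 was called higher at the first 5 steps, and SRSF7 was called higher at 4 steps and lower from 6 to 9 h (−0.68). For SRSF5 and SRSF6, bold type at the steps that use DMSO 9 h is a description.

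After 9 h SRSF1 went on rising, and SRSF5, SRSF6 and SRSF7 turned from a fall to a rise. From 9 to 12 h SRSF1, SRSF5, SRSF6 and SRSF7 rose (4 of 10, where 9.07% of all genes were called higher). SRSF11 fell (1 of 10, where 6.12% were called lower). The 4 include SRSF5 and SRSF6, a description at this step, so nothing is read from the 4. From 12 to 15 h SRSF1, SRSF6, SRSF7 and SRSF11 rose (4 of 10, where 5.03% were called higher, and 0 lower, where 1.98% were). By edgeR at an unadjusted p below 0.05, and by DESeq2, the number lower was also 0. From 15 to 24 h SRSF4 rose by 0.23 ± 0.07 and SRSF5 fell by 0.28 ± 0.07 (adjusted p = 0.0095 and 0.0044, edgeR), where 16.5% of all genes were called higher and 13% lower. The SRSF4 value was 0.17 and no longer called without the 5 libraries, where the SRSF5 value was −0.41 and the SRSF7 rise to 15 h was no longer called (0.29). Leaving out 1 library changed these small counts. The SRSF5 rise to 12 h was lost without replicate 3 of DMSO 9 h. The SRSF11 fall to 12 h was lost without replicate 1 or 3 of DMSO 12 h or replicate 2 of DMSO 9 h. The rises to 15 h numbered 2 without replicate 1 or 3 of DMSO 12 h or replicate 2 of DMSO 15 h. The SRSF4 call was lost without replicate 1 of DMSO 15 h or replicate 3 of DMSO 24 h, and the SRSF5 call without replicate 1 of DMSO 24 h.

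SRSF1 was the steadiest climber, with a rise at every DMSO step up to 15 h. It stood at 302 and 337 CPM at DMSO 24 h, against 81.7, 85.8 and 83.7 CPM at 0 h, a log2 fold change of 1.93 ± 0.07 (adjusted p = 3.4e-21, edgeR). In DMSO its mean ran 112, 148, 176, 242, 304 and 320 CPM at 3, 6, 9, 12, 15 and 24 h, and only the last step was not called (0.07 ± 0.07). SRSF10 climbed more slowly, from 90.7 CPM at 3 h through 124 at 6 h to 150.1 CPM at 9 h. It stood at 183 CPM at 15 h and 167 CPM at 24 h. Its steps from 9 to 12 h (0.12 ± 0.06), 12 to 15 h (0.16 ± 0.06) and 15 to 24 h (−0.13 ± 0.07) were not called.

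Over the whole release, all 10 genes were called at DMSO 24 h against 0 h: 6 higher, where 36.7% of all genes were, and 4 lower, where 38.9% were. The median log2 value was 0.65 over the 10 genes and −0.10 over all tested genes (−0.21 when scaled by library totals). SRSF7 was higher by 2.12 ± 0.10, SRSF2 by 1.87 ± 0.10 and SRSF3 by 1.84 ± 0.07 (adjusted p = 1.3e-18, 1.7e-16 and 1.6e-20, edgeR). SRSF10 was higher by 0.96 ± 0.07 and SRSF6 by 0.35 ± 0.06 (adjusted p = 7.8e-14 and 2.2e-06, edgeR). CLK1 stood at 40.3 and 34.1 CPM at DMSO 24 h, against 102.5, 186 and 105 CPM at 0 h, lower by −1.82 ± 0.18 on the log2 scale and by −1.49 without replicate 2 of 0 h (adjusted p = 1.1e-10 and 1e-11, edgeR). SRSF5 was lower by −1.32 ± 0.08 (adjusted p = 3e-16, edgeR), at 120.4 ± 13 CPM at DMSO 24 h and 301 ± 18 CPM at 0 h. SRSF4 and SRSF11 were lower by −0.32 ± 0.07 and −0.19 ± 0.06 (adjusted p = 7.7e-05 and 0.0097, edgeR), and the SRSF11 call was lost with no filter, without the 5 libraries, without replicate 1 of DMSO 24 h and without replicate 2 of 0 h. Without the 5 libraries the log2 values were 2.25 for SRSF7, 1.94 for SRSF1, 1.92 for SRSF2, 1.91 for SRSF3, 0.99 for SRSF10 and 0.43 for SRSF6, and −1.61 for CLK1, −1.34 for SRSF5, −0.28 for SRSF4 and −0.16 for SRSF11. The epithelial, fibroblast, blood and endothelial marker sums given above also differed from 0 h, and their part in these results was not tested.

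In medium with palbociclib, SRSF1 and SRSF7 were higher at 24 h than at 9 h, and SRSF3, SRSF4, SRSF5 and CLK1 were lower. These are 2 of 10 genes higher, where 19.6% of all genes were called higher, and 4 lower, where 20.2% were. SRSF1 stood at 248 and 268 CPM at palbociclib 24 h, against 152.5, 168 and 164 CPM at palbociclib 9 h, higher by 0.68 ± 0.07 (adjusted p = 3.5e-09, edgeR). SRSF7 was higher by 0.35 ± 0.10 (adjusted p = 0.0042) and SRSF5 lower by −0.36 ± 0.07 (adjusted p = 2.1e-04, edgeR). The CLK1, SRSF3 and SRSF4 values were −0.52 ± 0.18, −0.20 ± 0.07 and −0.20 ± 0.07 (adjusted p = 0.024, 0.026 and 0.023, edgeR). SRSF1 differed by 0.61 without the 5 libraries, SRSF7 by 0.27, SRSF5 by −0.42, CLK1 by −0.38, SRSF3 by −0.24 and SRSF4 by −0.26. Of the 4 falls, 1 was called without the 5 libraries or without replicate 3 of palbociclib 24 h, and 2 without replicate 1 of either group. Of the 2 rises, 1 was called without the 5 libraries or without replicate 3 of palbociclib 24 h.

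Against DMSO at the same hour, palbociclib libraries at 9 h had higher SRSF5 and SRSF6, and the libraries of 7 of the other genes overlapped between the treatments. SRSF5 stood at 157.5, 166 and 173 CPM in palbociclib, against 122, 124 and 110.3 CPM in DMSO. SRSF6 stood at 184, 181 and 191 CPM in palbociclib, against 151, 140 and 150 CPM in DMSO. In both genes every palbociclib library was above every DMSO library, and the log2 differences were 0.48 ± 0.07 and 0.33 ± 0.05 (SE), or 0.44 and 0.31 without the 5 libraries. These were the 2 of 10 genes past the edgeR threshold, where 0.114% of all tested genes were called higher and 1.08% lower. CLK1 stood at 61.1, 52.1 and 54.2 CPM in palbociclib, against 45.0, 44.0 and 47.3 CPM in DMSO. Its libraries again did not overlap, but it was short of the threshold (0.30 ± 0.16). How many of all tested genes separate in this way was not counted, here or at the later times, so nothing is read from it. Set against the earlier vehicle groups, the SRSF5 mean was 166 CPM at both palbociclib 9 h and DMSO 6 h. The SRSF6 mean of 185 CPM at palbociclib 9 h lay below the 214 CPM of DMSO 6 h and above the 147 CPM of DMSO 9 h.

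At 12 h SRSF6 stood at 250, 249 and 253 CPM in palbociclib, against 197, 207.5 and 201 CPM in DMSO, a log2 difference of 0.31 ± 0.05 and the 1 gene of the 10 past the threshold, where 0.83% of all genes were called higher and 4.81% lower. It was also 0.31 without the 5 libraries. SRSF5 was still higher in every palbociclib library, by 0.18 ± 0.07, and among the settings tried it passed the threshold only when the axis within groups was added to the fit. SRSF1 and SRSF7 were lower in every palbociclib library at 12 h, by −0.09 ± 0.06 and −0.11 ± 0.09, and neither passed it. At 15 h the SRSF6 difference was 0.09 ± 0.05, its libraries again not overlapping, and the same without the 5 libraries. SRSF7, SRSF10, SRSF1 and SRSF4 were then lower in every palbociclib library, by −0.23 ± 0.09, −0.23 ± 0.06, −0.15 ± 0.06 and −0.12 ± 0.06, or by −0.25, −0.21, −0.15 and −0.11 without the 5 libraries. SRSF10 was the 1 gene past the threshold at 15 h, where 8.79% of all genes were called lower and 2.15% higher. It was not past it with no filter, without the 5 libraries, or without replicate 1 or 3 of palbociclib 15 h or replicate 2 of DMSO 15 h.

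At 24 h SRSF1, SRSF2, SRSF3, SRSF4, SRSF6, SRSF7 and SRSF10 stood lower with palbociclib than with DMSO. Among these, SRSF6 alone had stood higher with palbociclib at every earlier time. The fitted differences of SRSF1, SRSF2, SRSF3, SRSF7 and SRSF10 were already negative at each earlier time, and only SRSF10 had passed the threshold. SRSF4 had earlier values of both signs. SRSF7 stood at 130 and 145.5 CPM in palbociclib, against 201 and 193 CPM in DMSO. SRSF4 stood at 82.9 and 85.7 CPM in palbociclib, against 111 and 119 CPM in DMSO, and SRSF3 at 265 and 277 CPM, against 356 and 368 CPM. None of these pairs of libraries overlapped, and the log2 differences were −0.52 ± 0.11, −0.45 ± 0.08 and −0.42 ± 0.08. With 2 libraries a group, genes with no difference can also separate, and the share of all genes that did was not counted. SRSF6 stood at 199.5 and 207 CPM in palbociclib, against 255 and 260 CPM in DMSO, a difference of −0.34 ± 0.06. SRSF2, SRSF1 and SRSF10 differed by −0.33 ± 0.11, −0.31 ± 0.08 and −0.28 ± 0.08. Without the 5 libraries the differences were −0.65 for SRSF7, −0.44 for SRSF3, −0.43 for SRSF4, −0.40 for SRSF2, −0.37 for SRSF6, −0.30 for SRSF10 and −0.29 for SRSF1. The summed basal markers stood at 9980 to 10700 CPM in palbociclib, against 9180 to 9510 CPM in DMSO, and their part in these differences was not tested.

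In all, 7 of the 10 genes were past the threshold on the lower side at 24 h, where 12.3% of all genes were called lower, and 0 on the higher side by edgeR or DESeq2, where 5.76% were. At an unadjusted p below 0.05 the number on the higher side was also 0. Nothing is read from this count. It was 4 without the 5 libraries, and also 4 without replicate 1 of palbociclib 24 h or replicate 3 of DMSO 24 h, since SRSF1, SRSF2 and SRSF10 then missed the threshold. SRSF5, CLK1 and SRSF11 had overlapping libraries at 24 h, with differences of 0.09 ± 0.08, 0.07 ± 0.20 and −0.04 ± 0.07, or 0.14, 0.11 and 0.03 without the 5 libraries. The median difference was −0.32 over the 10 genes and 0.01 over all tested genes. With 2 libraries a group, these values rest on few samples.

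**Figure D3:**
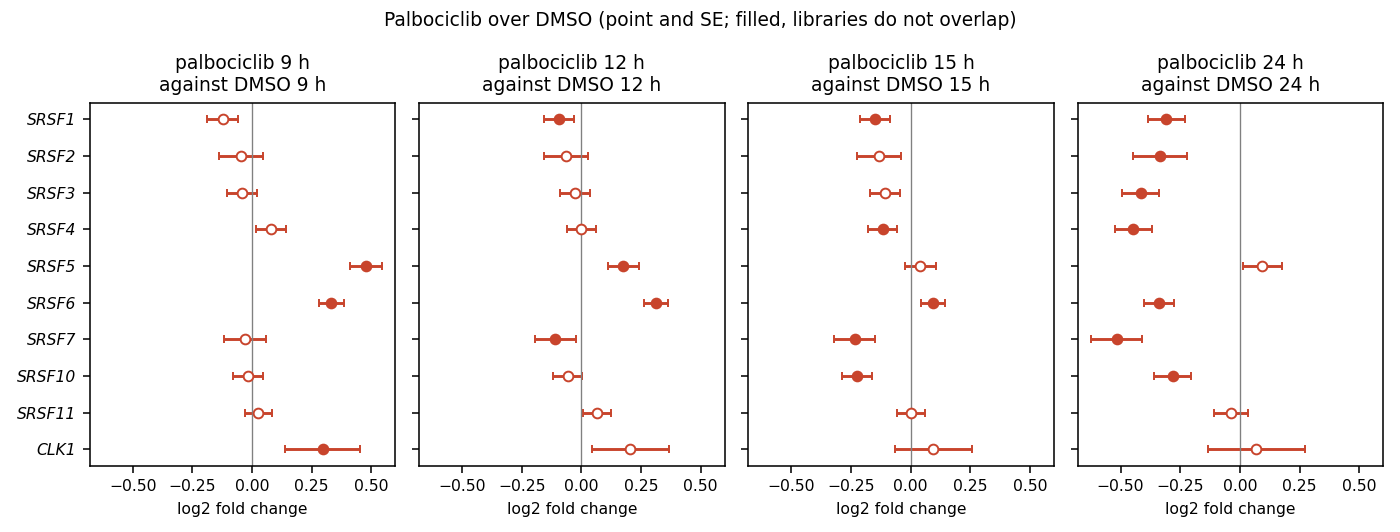
Log2 fold change of palbociclib over DMSO at the same hour for each gene, with the fitted value as a point and its SE as a bar; filled points mark genes whose palbociclib and DMSO libraries do not overlap. SRSF5 and SRSF6 lie to the right at 9 h (0.48 and 0.33), and 7 genes lie to the left at 24 h (−0.28 to −0.52). The share of all tested genes without overlap was not counted.

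For the other SR kinase genes, no palbociclib difference passed the threshold. Of the 8 tested genes for SR kinases other than CLK1 and for the import receptor TNPO3, 0 were called higher or lower at any of the 4 palbociclib times by edgeR, and their median at 24 h was −0.09. DESeq2 also called 0, and at an unadjusted p below 0.05 edgeR had 1 higher at 9 h, 1 lower at 15 h and 2 lower at 24 h. Over all tested genes, 0.114% to 5.76% were called higher and 1.08% to 12.3% lower at these times. Against such shares, 0 of 8 is not read as a trait of these genes. SRPK3 did not pass the filter. In DMSO at 24 h against 0 h, 36.7% of all genes were called higher and 38.9% lower. There CLK2, SRPK1, PRPF4B and TNPO3 were higher, by 0.23 ± 0.08, 1.17 ± 0.05, 0.58 ± 0.05 and 0.24 ± 0.05. CLK4, SRPK2 and DYRK1A were lower, by −1.69 ± 0.13, −0.21 ± 0.07 and −0.34 ± 0.09, and CLK3 was not called (0.01 ± 0.08). The number lower, 3 of 8, is near the share of all genes. These counts of 4 higher and 3 lower were 4 and 2 without the 5 libraries. At DMSO 24 h SRPK1 thus stood at 216 ± 13 CPM and CLK4 at 22.4 ± 3.3 CPM, against 96.4 ± 3.6 and 71.8 ± 16 CPM at 0 h.

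The list counts that follow are read against the share of all genes called, which was 36.7% higher and 38.9% lower for DMSO 24 h against 0 h, 27.8% and 34.4% for DMSO 3 h against 0 h, and 5.76% and 12.3% for palbociclib against DMSO at 24 h. The share without the 5 libraries was 35.2% and 29.6% for DMSO 24 h against 0 h, and 1.73% and 6.91% with palbociclib. Other SR and SR-related genes moved both ways. Of 27 tested, 17 were higher and 8 lower at DMSO 24 h against 0 h, with a median of 0.38, or 17 and 6 without the 5 libraries. The 8 lower are a smaller share than over all genes. TRA2B, the gene of a splicing activator with SR domains, had the largest rise at 2.47 ± 0.07, and SRRM2, which encodes a scaffold of nuclear speckles, the largest fall at −0.98 ± 0.09 (adjusted p = 1e-23 and 1.6e-11, edgeR). At 3 h 12 were higher and 8 lower, the lower share being near that of all genes. They ran from SRSF12 at 2.26 ± 0.21 to LUC7L, a U1-associated factor, at −0.86 ± 0.08. The SRSF12 level was low, at 4.6 ± 0.83 CPM at DMSO 3 h and 0.97 ± 0.15 CPM at 0 h. With palbociclib at 24 h, 1 was higher (NKTR, 0.31 ± 0.10) and 7 lower, with the largest fall in RNPS1, a protein of the exon junction complex (−0.40 ± 0.07), and a median of −0.15. These counts were 1 and 3 without the 5 libraries.

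The hnRNP genes, whose products often oppose SR proteins at exons, had 21 of 26 lower with palbociclib at 24 h and 0 higher, with a median of −0.34 against −0.32 for the 10 genes. At an unadjusted p below 0.05 edgeR had 1 hnRNP gene higher, and DESeq2 called 0. Of the hnRNP genes 12 were lower and 0 higher without the 5 libraries. HNRNPUL1 was the lowest at −0.54 ± 0.07. At DMSO 24 h against 0 h 23 of 26 were higher and 2 lower (median 0.70), or 23 and 1 without the 5 libraries, from HNRNPA3 at 2.62 ± 0.07 to PCBP2 at −1.02 ± 0.05. Of 24 genes for U1, U2 and U2AF subunits, 20 were higher and 2 lower at DMSO 24 h against 0 h (median 0.92), or 20 and 1 without the 5 libraries, led by the Sm protein gene SNRPD1 at 2.37 ± 0.08, with SF3B1 the lowest at −0.31 ± 0.05. With palbociclib at 24 h 11 of the 24 were lower and 0 higher (median −0.23), or 6 and 0 without the 5 libraries, and SF3A2, a U2 subunit gene, was the lowest at −0.78 ± 0.09. Of 15 NMD factor genes, 7 were lower and 0 higher with palbociclib at 24 h (median −0.21), or 2 and 0 without the 5 libraries, with MAGOHB, of the exon junction complex, the lowest at −0.52 ± 0.13. In both of these lists 0 genes were higher at an unadjusted p below 0.05 in edgeR, and 0 by DESeq2. At DMSO 24 h against 0 h 9 were higher and 4 lower, or 8 and 3 without the 5 libraries, from MAGOHB at 1.72 ± 0.12 to SMG1, the NMD kinase, at −0.66 ± 0.14. SMG1 differed by −0.43 without the 5 libraries, where the genes of these 4 lists named at 24 h were all called in the same direction.

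**Figure D4:**
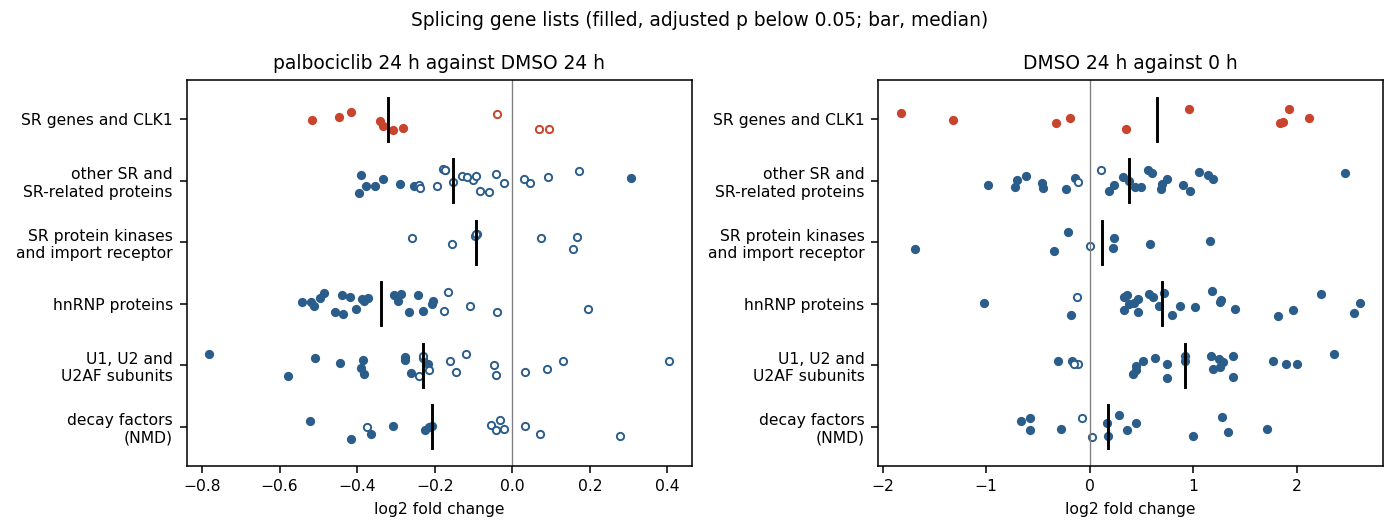
Log2 fold change of each gene (points) in the 10 genes described and in 5 lists of splicing and decay genes, for palbociclib 24 h against DMSO 24 h (left) and DMSO 24 h against 0 h (right); filled points have an adjusted p below 0.05 and bars mark medians. For the 10 genes with palbociclib, filled points are a description. With palbociclib the medians run from −0.34 (hnRNP) to −0.09 (kinases), with the 10 genes at −0.32.

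Across the 11 group means, SRSF2 and SRSF3 followed each other most closely of the pairs among the 10 genes (Pearson r = 0.978), and SRSF2 and SRSF7 had an r of 0.933. CLK1 ran opposite to SRSF2 (r = −0.893) and SRSF3 (r = −0.857), and SRSF5 opposite to SRSF10 (r = −0.872). These coefficients describe 11 groups of the same time course and share its libraries. CLK1 had a mean of 131 CPM at 0 h and at most 60.3 CPM (DMSO 6 h) elsewhere. SRSF5 had means of 301 CPM at 0 h and 414 CPM at DMSO 3 h, and at most 166 CPM elsewhere. No coefficient was computed without these groups. Among 9214 genes of at least moderate level, the genes with the most similar group means were MRPL14 for SRSF3 (r = 0.992), COL4A2 for SRSF10 (0.991), G3BP1 for SRSF2 (0.990) and PDIA4 for SRSF1 (0.988). NFKB2, ABHD12, DCAF5 and NFYA came closest to SRSF5 (0.978), SRSF4 (0.975), CLK1 (0.975) and SRSF7 (0.970). The profiles of SRSF11 and SRSF6 had the least similar nearest genes, ARHGEF28 at 0.902 and CARD19 at 0.892.

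In GRCh38, as the files give positions, the 10 genes lie on 6 chromosomes. CLK1 is on chromosome 2, from 200853009 to 200864744, and SRSF7 on the same chromosome, from 38743599 to 38751494, both on the minus strand. SRSF5 is on chromosome 14, from 69726900 to 69772005, and SRSF6 on chromosome 20, from 43457928 to 43464247, both on the plus strand. SRSF1 and SRSF2 are on chromosome 17, from 58003360 to 58007346 and from 76734115 to 76737374, both on the minus strand. SRSF3 is on chromosome 6, from 36594353 to 36605600. SRSF4, SRSF10 and SRSF11 are on chromosome 1, starting at 29147743, 23964804 and 70205682.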

How the data were processed

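Per the labels' protocols, poly(A) RNA was sequenced as 75 nt single reads from a stranded kit. The submitters' processing notes name the tools FastQC 0.11.3, TopHat2 2.1.1, Bowtie2 2.2.9 and Subread 1.5.1 and the build GRCh38.p7. The authors counted reads with featureCounts 1.5.1 over the exons of each gene name in GENCODE 25, per the file headers, and no strand option is recorded there, so reads in exons that 2 genes share went uncounted. The deposited numbers are unnormalized counts. Of 56269 names, 34335 had a count and 178 lay on more than 1 chromosome. The counts of all 31 libraries were fitted together by group with edgeR 4.0.16 in R 4.3.3 (filterByExpr, TMM factors 0.927 to 1.081, quasi-likelihood test, Benjamini-Hochberg adjustment over 15787 genes, threshold 0.05). Each SE was taken as the size of the log2 fold change divided by the root of its F statistic. Replicates differed by more than sampling noise (chi-square per degree of freedom 3.31 to 18), and the common biological coefficient of variation was 6.55%. Successive time steps share libraries, as do the palbociclib and DMSO comparisons. Named genes are the 10 genes, the SR kinases, the cell-cycle checks, the called list genes with the largest rise and fall at DMSO 3 h and 24 h against 0 h and in palbociclib comparisons, and, for each of the 10, the closest of 9214 genes by Pearson r of group mean log2 CPM (prior count 2, mean of at least 3, with clone, mitochondrial, Y-linked and X-inactivation genes left out). The genes and lists were chosen with earlier results of these data known. Alternatives were DESeq2 1.42.0, other scalings, no filter, only the groups compared, leaving out 1 library or the 5 that stand apart, a replicate block and, added after the data were seen, an axis covariate, levels per kb of exon that no other gene shares, and list counts without the 5 libraries. Promoter sequences are from RefSeq on GRCh38.p14. The result for 1 marker gene is not reported here.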

Additional observations from a re-analysis of the deposited data

Results flagged for a closer look

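SRSF6 stood on different sides of DMSO at different times with palbociclib. Every palbociclib library was higher than every DMSO library at 9 h (log2 0.33), at 12 h (0.31) and at 15 h (0.09), and every palbociclib library was lower at 24 h (−0.34). The difference between these times was not tested, and the share of all genes with such separation was not counted. SRSF6 was one of the genes whose palbociclib values led to its choice.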

How the results depend on the processing

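Of 120 values (10 genes in 12 comparisons), 61 were called by edgeR, 44 of these were kept under every alternative run, 17 were lost under some, and 0 changed sign. Counts that moved by over 1.5 times follow, with times in DMSO unless palbociclib is named. With no filter, 2 genes fell from 9 to 12 h, 2 fell from palbociclib 9 h to 24 h, and 0 were lower with palbociclib at 15 h. With only the groups compared, 2 fell from 9 to 12 h, 2 fell from 15 to 24 h, and 2 were lower with palbociclib at 15 h. Without the 5 libraries that stand apart, 0 rose from 15 to 24 h, 1 rose and 1 fell from palbociclib 9 h to 24 h, 0 were lower with palbociclib at 15 h and 4 at 24 h. With the axis covariate, 2 were higher with palbociclib at 12 h and 3 lower at 15 h. Leaving out 1 library gave 0 to 1 falls from 9 to 12 h, 2 to 4 rises from 12 to 15 h, 0 to 1 rises and 0 to 1 falls from 15 to 24 h, 1 to 2 rises and 1 to 3 falls from palbociclib 9 h to 24 h, 0 to 1 lower with palbociclib at 15 h and 4 to 7 at 24 h. The replicate numbers paired the libraries only in part. At the steps from 0 to 15 h, same-numbered correlations ran from 0.239 to 0.422 for replicate 2 and 0.114 to 0.364 for replicate 3. For replicate 1 they ran from 0.00243 to 0.0609. For palbociclib against DMSO at 9, 12 and 15 h the range over all numbers was −0.249 to 0.113. The main fit had no replicate term. With the replicate block, all 61 calls were kept, 6 were added, 2 genes rose from 15 to 24 h, 3 were lower with palbociclib at 15 h, and libraries correlated best with their own number in 3 of 3 cases at 3 h against 0 h and in 0 to 2 of 3 elsewhere.

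Of values not called, 18 changed sign under some alternative. By library totals, SRSF10 was −0.0832 at 3 h and SRSF4 0.000568 from 3 to 6 h. SRSF2 from 6 to 9 h was 0.00129 with DESeq2 size factors, 0.00113 with DESeq2 and 0.0145 without the 5 libraries. Without these 5, SRSF1 from 15 to 24 h was −0.0187, SRSF2 from palbociclib 9 h to 24 h −0.0593, and SRSF11 with palbociclib −0.0153 at 15 h and 0.0312 at 24 h. With no filter, SRSF4 at 12 h was −0.00342 and SRSF11 at 15 h −0.00197 with palbociclib. SRSF4 at 12 h was −0.00224 with the replicate block, and SRSF11 at 15 h −0.00118 with the axis covariate. Leaving out 1 library gave these ranges: from 6 to 9 h SRSF2 −0.0806 to 0.0701 and SRSF3 −0.0121 to 0.0828, from 9 to 12 h SRSF2 −0.002 to 0.136 and SRSF4 −0.0392 to 0.0519, from 15 to 24 h SRSF1 −0.0107 to 0.149 and SRSF2 −0.00218 to 0.112, and from palbociclib 9 h to 24 h SRSF2 −0.0428 to 0.153. With palbociclib they were, at 9 h, SRSF2 −0.11 to 0.0271, SRSF7 −0.0554 to 0.00883, SRSF10 −0.0493 to 0.0202 and SRSF11 −0.00756 to 0.0608, at 12 h SRSF4 −0.0397 to 0.0392, at 15 h SRSF11 −0.0284 to 0.0526, and at 24 h SRSF5 −0.02 to 0.201, SRSF11 −0.106 to 0.0146 and CLK1 −0.085 to 0.221. The cause of these moves was not tested. Scaling by library totals moved the share of called genes that were higher to 60.8% from 71.7% for DMSO 15 h against 12 h, and to 31.3% from 19.7% for palbociclib against DMSO at 15 h. Over all genes, palbociclib against DMSO gave at 9 h 18 higher and 170 lower, but 6 and 123 without the 5 libraries, 11 and 141 with only the groups compared, 25 and 275 with no filter, 62 and 192 with the replicate block and 109 and 319 with the axis covariate. The number higher was 131 at 12 h, but 57 without the 5 libraries, 59 with no filter, 239 with only the groups compared, 240 with the replicate block and 311 with the axis covariate. At 15 h it was 340, but 145 with no filter, 164 without the 5 libraries, 593 with the axis covariate and 595 by library totals. At 24 h 910 were higher and 1937 lower, but 285 and 1137 without the 5 libraries. Without the 5 libraries, 1504 genes were higher and 1230 lower from 15 to 24 h, against 2609 and 2060 with them, and 1897 were higher from palbociclib 9 h to 24 h, against 3088. From 12 to 15 h 313 were lower, but 480 by library totals, 484 with only the groups compared and 541 with the axis covariate. Where 1 library is left in a group, it is assumed to vary like the others. The lowest count of any of the 10 genes in a library was 443.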
